A study of Mus musculus with 13 samples.

Results

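The genes described here make, carry, sense and clear retinoic acid, and their transcripts were measured in mouse embryonic fibroblasts (MEFs), as primary cells and as the lines that immortalized spontaneously from them. They are 9 genes chosen by symbol, Aldh1a1, Aldh1a2, Aldh1a3, Crabp1, Crabp2, Cyp26b1, Rara, Rarb and Rarg, of 55487 gene rows in the count tables, and each symbol matched 1 Ensembl gene. Poly-A RNA was sequenced in 13 libraries. WT primary MEFs gave 3 libraries (clones 3, 4 and 5) and the immortalized line of each clone gave 3 more. MEFs labelled Prkd3-/- (named for Prkd3, the gene of protein kinase D3) gave 3 primary libraries (clones 13, 14 and 15) and 4 immortalized lines (clones 13, 13a, 14 and 15), of which 13 and 13a carry the number of the same primary clone. All cells were grown in 10% fetal calf serum, and the immortalized lines arose from senescent cultures moved to 20% serum, so serum history and state cannot be told apart. The WT clones are described in the study's methods as coming from different embryos. Lines were established from colonies that grew out of these cultures, and the age of the embryos and the Prkd3 allele are not given in the sources used here.

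Retinoic acid is the active derivative of vitamin A. Retinol is taken up and oxidized to retinaldehyde, and the retinaldehyde dehydrogenases of the ALDH1A group then make retinoic acid. Inside the cell, retinoic acid is held by the binding proteins CRABP1 and CRABP2, is removed by CYP26 enzymes, and acts through the receptors RARα, RARβ and RARγ, which bind DNA together with a retinoid X receptor. In the embryo this signal patterns the limb, the hindbrain and the body axis, and fibroblasts derived from the embryo are a common setting for its study.

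RAR dimers bind repeated half-sites, and the classical retinoic acid response elements lie in the promoters of Rarb and Cyp26a1, genes that retinoic acid itself is known to induce. Both stretches are shown because they tie the receptor genes to their readout genes. They are RefSeq sequence of build GRCm38.p6 and cover the 250 bases before the RefSeq transcription start, printed 5′ to 3′ on the strand of the gene with the matching element in capitals. The Rarb stretch lies within the annotated span of the gene, upstream of an internal start, and the Cyp26a1 stretch runs from upstream of its gene into the first bases of its annotated span.
Rarb, chr14:16575477-16575726, minus strand: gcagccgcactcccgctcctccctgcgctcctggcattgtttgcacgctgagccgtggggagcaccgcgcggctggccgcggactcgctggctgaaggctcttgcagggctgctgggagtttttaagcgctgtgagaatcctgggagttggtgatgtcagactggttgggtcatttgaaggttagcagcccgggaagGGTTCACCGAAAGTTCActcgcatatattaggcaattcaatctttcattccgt
Cyp26a1, chr19:37697558-37697807, plus strand: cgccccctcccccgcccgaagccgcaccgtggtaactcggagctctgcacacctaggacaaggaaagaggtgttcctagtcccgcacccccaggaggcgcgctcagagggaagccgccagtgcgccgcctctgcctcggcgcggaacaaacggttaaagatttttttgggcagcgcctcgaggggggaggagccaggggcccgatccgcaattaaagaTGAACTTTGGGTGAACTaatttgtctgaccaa

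The element searched for was a direct repeat of 2 half-sites, each of the letters NGNTCA where the first N is A or G and the last N is G or T, with 5 bases between them, on both strands. The Rarb element lay 53 to 37 bases before the start on the strand of the gene, and the Cyp26a1 element lay 32 to 16 bases before it and reads on the opposite strand. Windows of 250 bases before to 50 bases after a start were held for 7 of the 9 genes (not for Aldh1a3 and Crabp2), and Rarb alone of these 7 had a match. Of all 32851 windows, 0.0974% had one. A repeat with 2 bases between the half-sites was in 0.268% of windows and in none of the 7 genes. A match is a description of these letters and not evidence of binding.

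Totals ran from 35273410 to 100441800 counts per library (rounded to 7 digits), so that 3 counts, used as the floor, correspond to between 0.0282 and 0.0837 CPM (counts as a share of the library, scaled to a common size by TMM over the 13 libraries). These floors cover counting error only, since copies from PCR are not independent molecules. Prkd3 was counted in every library, at 68.4 to 72.9 CPM in WT primary and 33.4 to 43.2 CPM in the primary libraries labelled Prkd3-/- (log2 fold change −0.87, standard error 0.10, edgeR adjusted p = 0.0102), so gene counts alone do not show a deletion and Prkd3-/- refers to the label. The WT primary libraries were far more alike, with pairs differing by 0.41 to 0.46 (root mean square of log2 CPM over genes), than the WT lines (1.21 to 1.40), the Prkd3-/- primary libraries (0.61 to 1.02) or the Prkd3-/- lines (1.27 to 2.02). Each WT primary library held both Xist (43.7 to 55.3 CPM) and the Y-linked Ddx3y (51.1 to 63.5 CPM), whereas Xist reached at most 0.0576 CPM in the Prkd3-/- primary libraries. In the WT lines Xist ran from 56.4 to 175.3 CPM and Ddx3y from 0.216 to 65.6 CPM. These sex markers thus also differed between WT primary libraries and lines. Whether each WT primary library came from a single embryo cannot be told from these counts. All 8 fibroblast markers were above 1 CPM in every primary library and at least 7 of the 8 in every line. Summed macrophage markers (8 genes) ran from 655.2 to 667.5 CPM in WT primary and from 30.9 to 89.0 CPM in the WT lines, and 6 of the 8 fell in WT. In the libraries labelled Prkd3-/- the sum ran from 84.0 to 882.5 CPM in primary and from 9.78 to 144.0 CPM in the lines. Primary clone 14 had the highest sum of its group and line 13a the highest of the lines, and line 13a was also the line nearest to the primary libraries (mean distance 1.01, against 1.39 to 1.88 for the other lines). Endothelial markers (6 genes) summed to 14.1 to 18.8 CPM in WT primary and 0.746 to 2.93 CPM in the WT lines. Skeletal muscle markers (5 genes) summed to 22.2 to 25.9 and 0.742 to 7.30 CPM, and mesothelial markers (5 genes) to 41.2 to 57.3 and 1.10 to 43.9 CPM. These sums rest on few genes and alone do not show a cell type. Above 1 CPM in each WT primary library were 3 of the 6 endothelial, 1 of the 5 skeletal muscle and 3 of the 5 mesothelial markers. The endothelial genes Pecam1 and Cdh5 reached at most 0.197 and 0.390 CPM there. Fewer cells of a type and less RNA per cell cannot be told apart in these bulk samples. Epithelial markers (6 genes) summed to at most 4.34 CPM and Schwann and neural crest markers (5 genes) to at most 12.6 CPM in any library, and chondrocyte markers (4 genes) to 187.1 to 242.7 CPM in WT primary and 76.9 to 739.3 CPM in the WT lines. None of the markers of these lists passed the thresholds between Prkd3-/- primary libraries and lines with edgeR, and in line 13 of that genotype 5 of the 8 macrophage markers were at 0. The part of these markers in the results that follow was not tested.

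The first comparison asks which of the genes differ between primary and immortalized WT cells. Of the 9 genes, Aldh1a2 and Crabp2 fell in the WT lines with edgeR and none rose. The thresholds used here were an adjusted p under 0.01 and a log2 fold change of at least 1 in size. Over the 19836 genes tested, 1.82% passed these thresholds, 1.76% lower and 0.0605% higher. Groups of primary and immortalized libraries did not overlap for 7 of the 9 genes, with the lines lower for Aldh1a2, Crabp1, Crabp2, Cyp26b1 and Rarb and higher for Aldh1a1 and Rara. Among all genes, 15.7% did not overlap with the lines lower and 16.6% with the lines higher, 32.3% together. The median log2 fold change of the 9 genes was −1.03, the value of Cyp26b1, beside 0.04 over all genes. With the clone number as a block none of the 9 genes passed (edgeR adjusted p = 0.0705 for Aldh1a2 and 0.0272 for Crabp2). None passed in a joint fit of all 13 libraries (0.1699 and 0.474), nor when WT primary 3, 4 or 5 was left out. With the block and in the joint fit, no gene of the whole table passed. With DESeq2, 5 of the 9 passed (Aldh1a1, Aldh1a2, Crabp1, Crabp2 and Rarb). Calls over all genes also rose, from 361 with edgeR to 1368 with DESeq2.

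**Figure D1:**
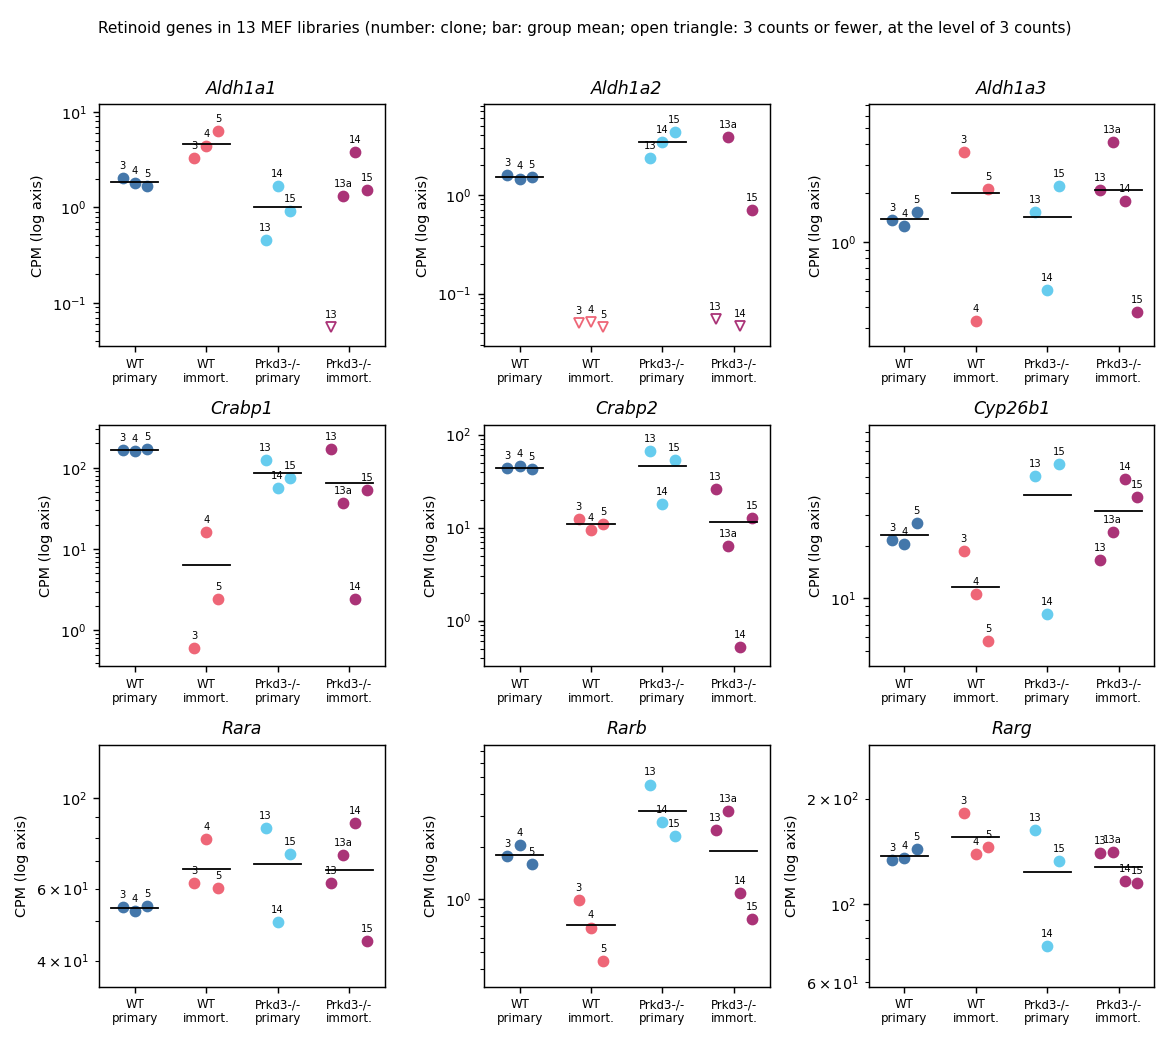
CPM of the 9 genes (log axis, a separate range in each panel) in each of the 13 libraries, in 4 groups by genotype and state. Points are libraries with their clone number, bars are group means, and open triangles at the level of 3 counts mark libraries with 3 counts or fewer. The WT primary points lie close together in every panel, Aldh1a2 is at or under the floor in all 3 WT lines, and Rara and Rarg stay within a narrow range.

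Among the enzymes of retinoic acid synthesis, Aldh1a2 (chr9:71215789-71296243, plus strand), the main retinaldehyde dehydrogenase of the early embryo, was lost from the WT lines. Its level was 1.58, 1.46 and 1.52 CPM in WT primary clones 3, 4 and 5, and 0.0166, 0 and 0.0461 CPM in their lines. Every line was thus at 3 counts or fewer, and the groups did not overlap. The pooled WT counts were 325 in primary and 4 in immortalized libraries, a ratio of 69.4 after scaling, with a 95% exact counting interval of 26.8 to 256.1. The fitted log2 fold change was −6.05 (standard error 0.66, edgeR adjusted p = 0.00708), a size that depends on the prior count because the lines are at the floor. Without WT line 3 it missed the thresholds, with an adjusted p of 0.0120.

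The Prkd3-/- lines were split for Aldh1a2. Primary clones 13, 14 and 15 had 2.35, 3.46 and 4.38 CPM. Lines 13 and 14 had 0.0371 and 0.0311 CPM, at 2 counts each, line 15 had 0.695 CPM, and line 13a had 3.89 CPM, within the range of the primary libraries. Lines 13 and 13a, numbered from the same clone, thus differed, with line 13 under the floor of 3 counts and line 13a the highest of the lines. The log2 fold change was −1.54 (standard error 1.40, edgeR adjusted p = 0.867). Line 13a is the line that stood nearest to the primary libraries over all genes and had the most macrophage marker RNA of the lines.

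Aldh1a1 (chr19:20492715-20643465, plus strand), which encodes a retinaldehyde dehydrogenase also used as a stem cell marker, had higher values in the WT lines, at 3.30, 4.37 and 6.31 CPM, than in WT primary, at 2.03, 1.80 and 1.66 CPM. The groups did not overlap, and the difference did not pass the thresholds with edgeR (log2 fold change 1.31, standard error 0.28, edgeR adjusted p = 0.0611). Aldh1a1 passed with DESeq2 (adjusted p = 0.000683), and the paper names it among its upregulated genes. Its Prkd3-/- primary values were 0.450, 1.69 and 0.920 CPM, and its values in that genotype's lines were 0.0185 (1 count) in line 13, 1.32 in line 13a, 3.80 in line 14 and 1.52 CPM in line 15. These groups overlapped, and line 13 lay below all other libraries.

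Aldh1a3 (chr7:66390890-66427517, minus strand), the third enzyme of the group, did not follow the state. WT primary libraries had 1.36, 1.26 and 1.54 CPM, and the WT lines had 3.60, 0.328 and 2.12 CPM. The Prkd3-/- primary libraries had 1.53, 0.507 and 2.23 CPM, and lines 13, 13a, 14 and 15 had 2.09, 4.12, 1.79 and 0.374 CPM. In both genotypes the lines lay on both sides of the primary libraries. The log2 fold change was 0.50 in WT (standard error 0.76, edgeR adjusted p = 0.766) and 0.56 in Prkd3-/- (standard error 0.81, edgeR adjusted p = 0.907).

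The makeup of the ALDH1A group was compared per kilobase of exon, as FPKM (CPM per kilobase). In WT primary libraries Aldh1a2 made up 49.6% to 50.4% of the summed FPKM, Aldh1a1 25.1% to 29.3% and Aldh1a3 21.1% to 24.8%. In the WT lines the share of Aldh1a2 was at most 1.16%, and the leading gene was Aldh1a1 in lines 4 (92.6%) and 5 (72.7%) and Aldh1a3 in line 3 (53.6%). The summed level itself was low and similar in both, at 1.28 to 1.40 FPKM in WT primary and 0.955 to 1.76 FPKM in the lines. In the Prkd3-/- primary libraries Aldh1a2 held 71.1% to 77.2%, and among the lines it held 59.7% in line 13a and 1.17% in the lowest.

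Of the 9 genes, Crabp1 had the highest level per length in the WT primary libraries, at 202.4 to 212.6 FPKM, beside 32.2 to 34.4 FPKM for Crabp2. Crabp2 (chr3:87948666-87953376, plus strand) encodes the protein that delivers retinoic acid to the receptors. It was at 43.9, 45.4 and 42.5 CPM in WT primary and at 12.4, 9.47 and 10.9 CPM in the WT lines. The lines lay close together and below all primary libraries (4.13-fold lower, log2 fold change −2.05, standard error 0.12, edgeR adjusted p = 0.000951).

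Crabp2 in the Prkd3-/- libraries was at 66.9, 18.0 and 53.5 CPM in primary clones 13, 14 and 15 and at 26.1, 6.32, 0.513 and 12.7 CPM in lines 13, 13a, 14 and 15. Primary clone 14 lay below line 13, so the groups overlapped, but each of the 4 lines was below the primary library of its own clone number. The log2 fold change was −2.01, near the WT value, with a much larger standard error of 1.03 (edgeR adjusted p = 0.804). Line 14 had the lowest Crabp2 of the 13 libraries.

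Crabp1 (chr9:54764748-54773110, plus strand), whose product binds retinoic acid in the cytoplasm and is known to lead it to breakdown, was at 164.4, 162.3 and 170.5 CPM in WT primary. The WT lines had 0.597, 16.0 and 2.46 CPM. All lines were below all primary libraries, with line 4 well above the other two (log2 fold change −4.75, standard error 1.21, edgeR adjusted p = 0.0990). The difference did not pass the thresholds with edgeR and passed with DESeq2 (adjusted p = 9.49e-06). Crabp1 was one of the genes of widest range, from 0.597 CPM in WT line 3 to 170.5 CPM in WT primary clone 5.

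The Prkd3-/- lines kept or lost Crabp1 line by line. Primary clones 13, 14 and 15 had 126.0, 56.0 and 74.4 CPM, and lines 13, 13a, 14 and 15 had 170.3, 37.2, 2.46 and 52.7 CPM. Line 13 was thus above its primary library while the other lines were below theirs, and only line 14 was in the range of the WT lines. The log2 fold change was −0.37 (standard error 1.04, edgeR adjusted p = 0.960).

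Per length, Crabp1 made up 85.5% to 86.9% of the summed FPKM of the pair in WT primary libraries. In the WT lines this share was 7.33%, 73.6% and 27.1% for lines 3, 4 and 5, so Crabp2 led in lines 3 and 5. The summed level went from 236.8 to 244.8 FPKM in WT primary to between 10.2 and 27.1 FPKM in the lines. Crabp1 held 87.3% to 91.5% in the Prkd3-/- lines, above its share of 69.6% to 83.7% in the primary libraries, over sums from 3.45 FPKM in line 14 to 232.1 FPKM in line 13.

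**Figure D2:**
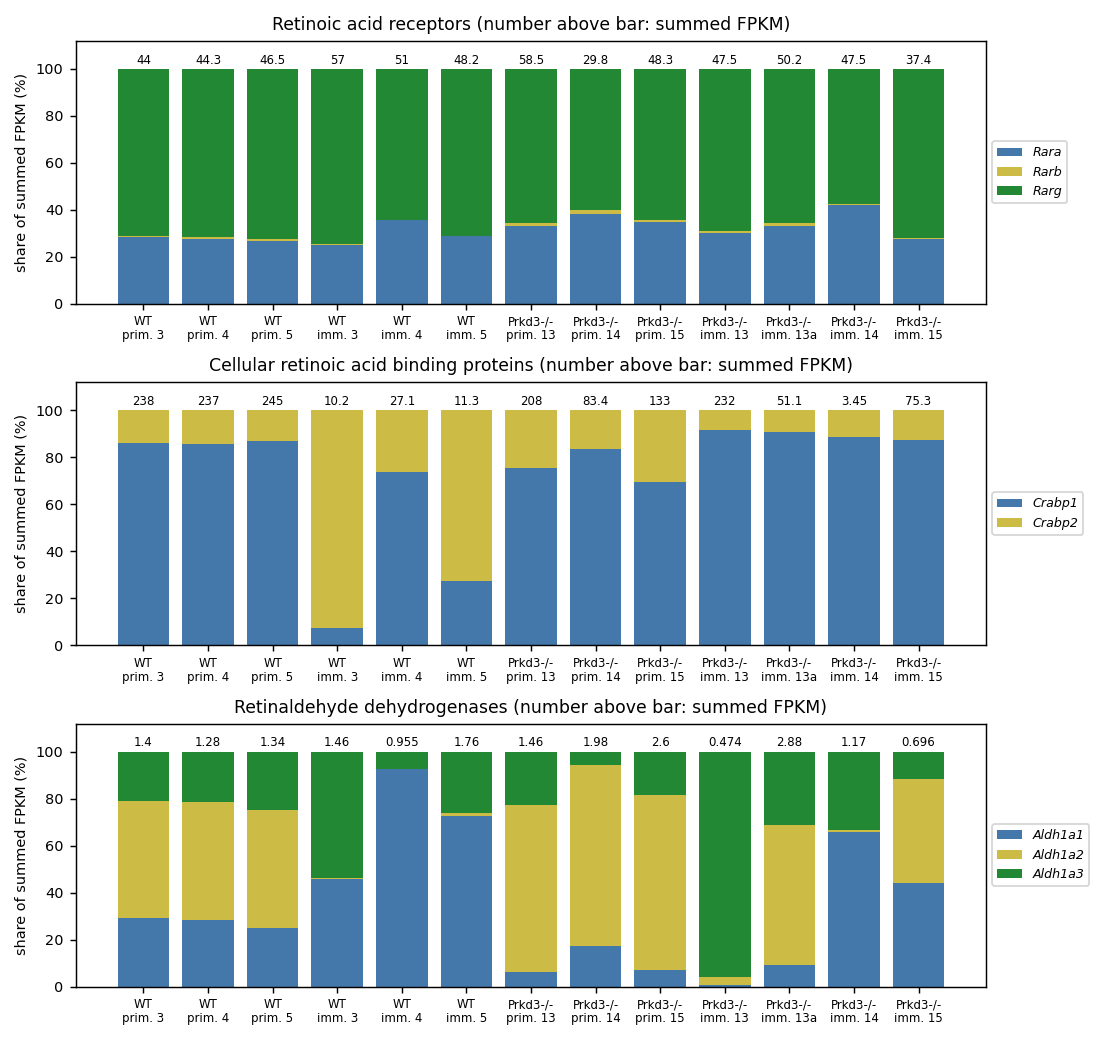
Share of each gene in the summed FPKM (CPM per kilobase of exon) of the receptors, the binding proteins and the synthesis enzymes in each of the 13 libraries, with the sum above each bar. Crabp1 gives way to Crabp2 in WT lines 3 and 5, Aldh1a2 is nearly absent from the WT lines, and the receptor bars keep their order Rarg, Rara, Rarb in every library.

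Cyp26b1 (chr6:84571414-84593908, minus strand) encodes an enzyme that oxidizes and so clears retinoic acid. It was at 21.7, 20.5 and 27.0 CPM in WT primary and at 18.6, 10.6 and 5.73 CPM in the WT lines. The lines were all lower, line 3 only narrowly, and the difference did not pass the thresholds (log2 fold change −1.03, standard error 0.42, edgeR adjusted p = 0.250). In the Prkd3-/- libraries it was at 50.7, 8.17 and 58.9 CPM in primary and at 16.5, 24.1, 48.6 and 38.13 CPM in the lines (log2 fold change −0.30, standard error 0.66, edgeR adjusted p = 0.945). Primary clone 14 was the lowest library of that genotype, and its line was the only one above its own primary library.

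Rarg and Rara had the narrowest ranges of the 9 genes. Rarg (chr15:102234938-102257517, minus strand) and Rara (chr11:98927818-98974942, plus strand) encode RARγ and RARα. Over the 13 libraries the highest Rara value was 1.95 times the lowest and the highest Rarg value 2.38 times the lowest. The ratio was 10.2 for Rarb, the third receptor, 10.3 for Cyp26b1, 12.6 for Aldh1a3, 130.4 for Crabp2 and 285.5 for Crabp1. It was 340.6 for Aldh1a1, whose lowest library had 1 count, and has no value for Aldh1a2, which had 0 counts in WT line 4. Rarg was at 133.4, 135.5 and 143.8 CPM in WT primary and at 181.6, 139.5 and 146.1 CPM in the lines, which overlapped (log2 fold change 0.14, standard error 0.12, edgeR adjusted p = 0.582). Rara was at 54.2, 52.8 and 54.4 CPM in WT primary and at 62.1, 79.2 and 60.3 CPM in the lines, all higher, and did not pass the thresholds (log2 fold change 0.28, standard error 0.12, edgeR adjusted p = 0.286).

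In the Prkd3-/- libraries Rara ran from 49.6 to 84.4 CPM in primary and from 44.7 to 87.0 CPM in the lines, and Rarg from 76.2 to 163.2 and from 115.0 to 140.6 CPM. Both overlapped fully, with log2 fold changes of −0.04 and 0.05. The low end of both primary ranges was clone 14.

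Rarb (chr14:16430839-16819156, minus strand) encodes RARβ, whose gene is itself a classical target of the receptors through the element printed above. It was far lower than the other receptors. WT primary libraries had 1.76, 2.05 and 1.59 CPM and the WT lines 0.995, 0.690 and 0.446 CPM. The groups did not overlap, and the difference did not pass the thresholds with edgeR (log2 fold change −1.38, standard error 0.33, edgeR adjusted p = 0.0825). Rarb passed with DESeq2 (adjusted p = 0.00171). In the Prkd3-/- libraries it was at 4.53, 2.77 and 2.31 CPM in primary and at 2.50, 3.19, 1.09 and 0.775 CPM in the lines, which overlapped (log2 fold change −0.76, standard error 0.55, edgeR adjusted p = 0.844). Each of the 7 lines was below the primary library of its clone number, as was the case for Crabp2. The share of all genes for which this holds was not computed.

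The Rarb counts carry a limit that the other 8 genes do not. Of its exon bases, 34.1% are shared with Top2b on the other strand and 4.31% with Gm48162, and the counting ignored strand and gave a pair to every gene it overlapped, so reads of these genes cannot be told apart there. Top2b, which encodes DNA topoisomerase IIβ, was at 147.7 to 346.9 CPM and did not follow Rarb (log2 fold change 0.07 in WT, standard error 0.13, edgeR adjusted p = 0.817), and Gm48162 had at most 3 counts in any library.

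Per length, Rarg made up 57.6% to 74.7% of the receptor FPKM over the 13 libraries, Rara 24.9% to 41.9% and Rarb 0.176% to 1.77%. The order was the same in all 13 libraries. The share of Rarb was 0.650% to 0.879% in WT primary and 0.176% to 0.331% in the WT lines.

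**Figure D3:**
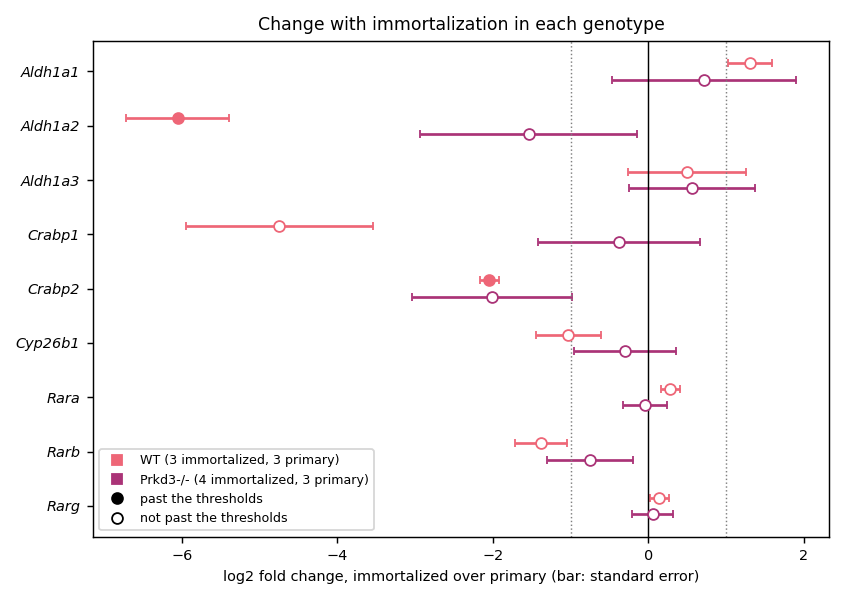
Log2 fold change of immortalized over primary cells with its standard error (bars) for each gene, in WT (3 lines, 3 primary libraries) and Prkd3-/- (4 lines, 3 primary libraries), with dotted lines at a log2 fold change of 1 in either direction. Filled points, Aldh1a2 and Crabp2 in WT, pass the thresholds, and the Prkd3-/- bars are wider than the WT bars for every gene except Crabp1.

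In the libraries labelled Prkd3-/-, none of the 9 genes passed the thresholds. edgeR called 0 of 20298 genes there (0%), with 1331 genes and none of the 9 at an unadjusted p under 0.05, and DESeq2 called 190 genes and none of the 9. All 9 genes overlapped between primary libraries and lines, where 9.37% of all genes did not (5.53% with the lines lower and 3.83% higher). Without primary clone 14 and line 13a, the libraries that stand apart in macrophage markers, edgeR again called none. Line by line, Crabp2 and Rarb were below the clone's own primary library in 4 of 4 lines, Aldh1a2, Crabp1, Cyp26b1, Rara and Rarg in 3 of 4, and Aldh1a1 and Aldh1a3 in 1 of 4. In WT, Aldh1a2, Crabp1, Crabp2, Cyp26b1 and Rarb were lower in 3 of 3 lines, Aldh1a1, Rara and Rarg higher in 3 of 3, and Aldh1a3 higher in 2 of 3. The share of all genes with lines on 1 side was not computed in either genotype. In WT, groups did not overlap for 32.3% of all genes, which alone puts every line on 1 side of its primary library. These line counts are thus descriptions and not a result about the 9 genes.

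**Figure D4:**
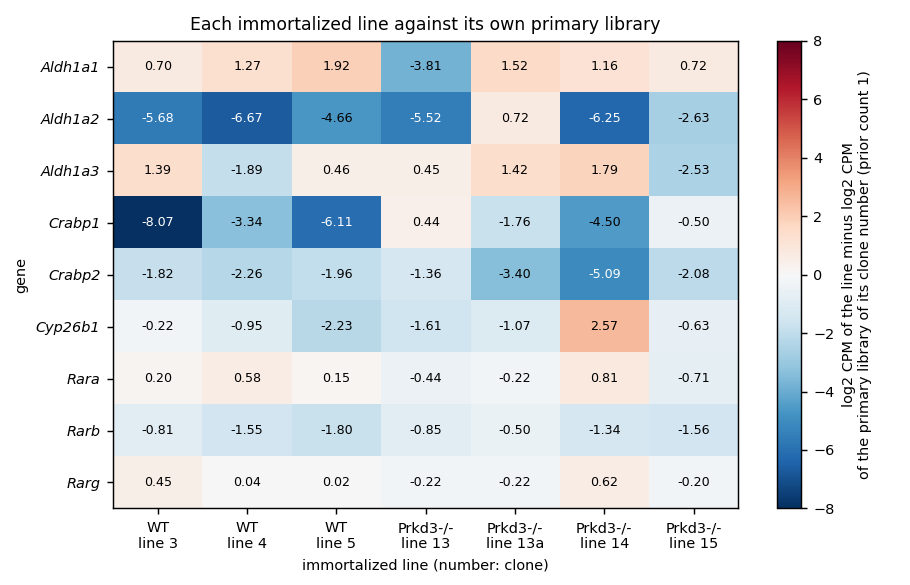
Log2 CPM of each of the 7 immortalized lines minus log2 CPM of the primary library with its clone number (prior count 1), for the 9 genes. Red is higher and blue lower in the line. Crabp2 and Rarb are blue in every column, and Aldh1a2 is strongly blue in all but lines 13a and 15, with line 13a slightly red.

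The difference between genotypes in the effect of immortalization was tested as an interaction over the 13 libraries. None of the 9 genes passed an adjusted p under 0.05, and neither did any of 21197 genes with edgeR (0%), of which 841 had an unadjusted p under 0.05. DESeq2 called 37 genes and none of the 9. The largest estimates were those of Aldh1a2 (4.53 on the log2 scale, less loss in Prkd3-/-, standard error 2.02) and Crabp1 (4.396, standard error 1.71), both with an unadjusted p under 0.05 and an edgeR adjusted p of 1.00. Crabp2 had an estimate of 0.06 (standard error 1.22). So the calls in WT and their absence in Prkd3-/- are not shown to be a difference between genotypes.

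Primary libraries of the genotypes were also compared, where genotype, the sex markers given above and the table in which the counts were deposited cannot be told apart. None of the 9 genes passed the thresholds with edgeR, beside 0.765% of all genes, and 3 of the 9 had an unadjusted p under 0.05, beside 24.1% of all genes. Aldh1a2 was higher in every Prkd3-/- primary library than in every WT one (log2 fold change 1.16, standard error 0.26, edgeR adjusted p = 0.0528), and passed with DESeq2 (adjusted p = 0.00121). Rarb was also higher without overlap (0.83, standard error 0.27, edgeR adjusted p = 0.132), and Crabp1 lower without overlap (−0.96, standard error 0.29, edgeR adjusted p = 0.110). Among all genes 34.1% did not overlap in this comparison, 17.3% lower and 16.8% higher in Prkd3-/-. Leaving out primary clone 14 changed the picture for Aldh1a1 (log2 fold change −1.53, edgeR adjusted p = 0.00975) and Cyp26b1 (1.25, edgeR adjusted p = 0.00102), which then passed. The estimates with that library were −0.83 and 0.77. Calls over all genes also depended on the library left out, with 156 when all were kept and between 2 and 1456 with 1 left out.

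The wider pathway was followed with 46 further genes of retinoid uptake, conversion, clearance, signalling and response, of which 35 had enough counts to be tested. In WT, 1 of the 35 fell (Rbp4) and none rose with edgeR, beside 1.76% of all genes lower and 0.0605% higher. The median log2 fold change of the 35 was 0.08. In Prkd3-/- none passed in either direction with edgeR, as over all genes (1, Dhrs9, with DESeq2), with a median of 0.06. By role, the WT log2 fold changes ran from −4.43 to 2.45 for retinol transport and storage (3 genes tested), from −2.27 to 1.9997 for the conversion of retinol and retinaldehyde (13), from −0.05 to 0.08 for the retinoid X receptors (2), from 0.01 to 0.18 for the alternative route through Fabp5 and Ppard (2), from −0.48 to 1.03 for receptor cofactors (6) and from −1.01 to 1.47 for known retinoic acid targets (9). None of the targets passed with edgeR. DESeq2 also called Nrip1 (a receptor corepressor), Meis2 and Nr2f1 (transcription factors known as retinoic acid targets) in WT, which were named after their values were seen and whose edgeR log2 fold changes were 1.03, 1.19 and 1.47 (adjusted p = 0.0898, 0.0650 and 0.0479).

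Rbp4, the plasma carrier of retinol, was at 3.06, 3.61 and 2.35 CPM in WT primary and at 0.0829, 0.173 and 0.169 CPM in the WT lines. It fell in all of them (21.5-fold lower, log2 fold change −4.43, standard error 0.38, edgeR adjusted p = 0.00312), and did not pass with the clone number as a block. Without overlap either, it ran from 0.779 to 1.37 CPM in primary and from 0.0267 to 0.612 CPM in the lines labelled Prkd3-/- (log2 fold change −1.80, standard error 0.88, edgeR adjusted p = 0.790).

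Of the genes of intake and conversion, Stra6, Rdh10, Aldh1a7 and Dhrs3 are described here by line. Stra6, the membrane receptor for retinol uptake, was at 0.283 to 0.369 CPM in WT primary and at 2.95, 0.328 and 2.23 CPM in WT lines 3, 4 and 5. Rdh10, which oxidizes retinol to retinaldehyde, was at 26.0 to 39.1 CPM and at 66.6, 11.0 and 59.5 CPM. In both of these genes, and in Aldh1a3 above, WT line 4 was lower than lines 3 and 5.

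Aldh1a7, a close paralog of Aldh1a1, was at 1.995 to 2.46 CPM in WT primary and at 19.3, 1.55 and 7.24 CPM in the lines. Reads of these near-identical genes are uncertain where a unique position could not be given. Dhrs3, which returns retinaldehyde to retinol and is known to respond to retinoic acid, was at 33.4 to 36.2 CPM in WT primary and at 4.01, 6.71 and 29.2 CPM in the lines, all lower. None of these 4 genes passed the thresholds in WT or Prkd3-/- with edgeR.

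By the ratio of highest to lowest value, Stra6 and Aldh1a7 ranged more widely among the Prkd3-/- lines than among the WT lines. Rdh10 did not (14.5 to 51.1 CPM). In CPM itself, Aldh1a7 ranged less widely among the Prkd3-/- lines. Line 14 had the highest Stra6 (7.08 CPM) and Aldh1a7 (14.05 CPM) of its genotype, and line 13 the lowest of each, at 0.0185 and 0.0556 CPM. Line 13 was likewise the lowest of the 13 libraries for Aldh1a1, and the farthest of the lines from the primary libraries over all genes.

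The retinoid X receptors, the partners of the RARs, had WT lines close to the primary libraries. Rxra was at 115.3 to 121.9 CPM in WT primary and 110.7 to 149.2 CPM in the lines (log2 fold change 0.08, standard error 0.13), and Rxrb at 38.11 to 41.7 and 36.7 to 41.9 CPM (−0.05, standard error 0.08). In the libraries labelled Prkd3-/- Rxra ranged more widely, from 69.8 to 132.8 CPM in primary and from 63.0 to 172.7 CPM in the lines, and Rxrb ran from 33.02 to 35.5 and from 33.5 to 47.3 CPM. Cyp26a1, whose promoter element is printed above and which is known as the most responsive of the clearing enzymes, had at most 3 counts in any library and was not tested.

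**Figure D5:**
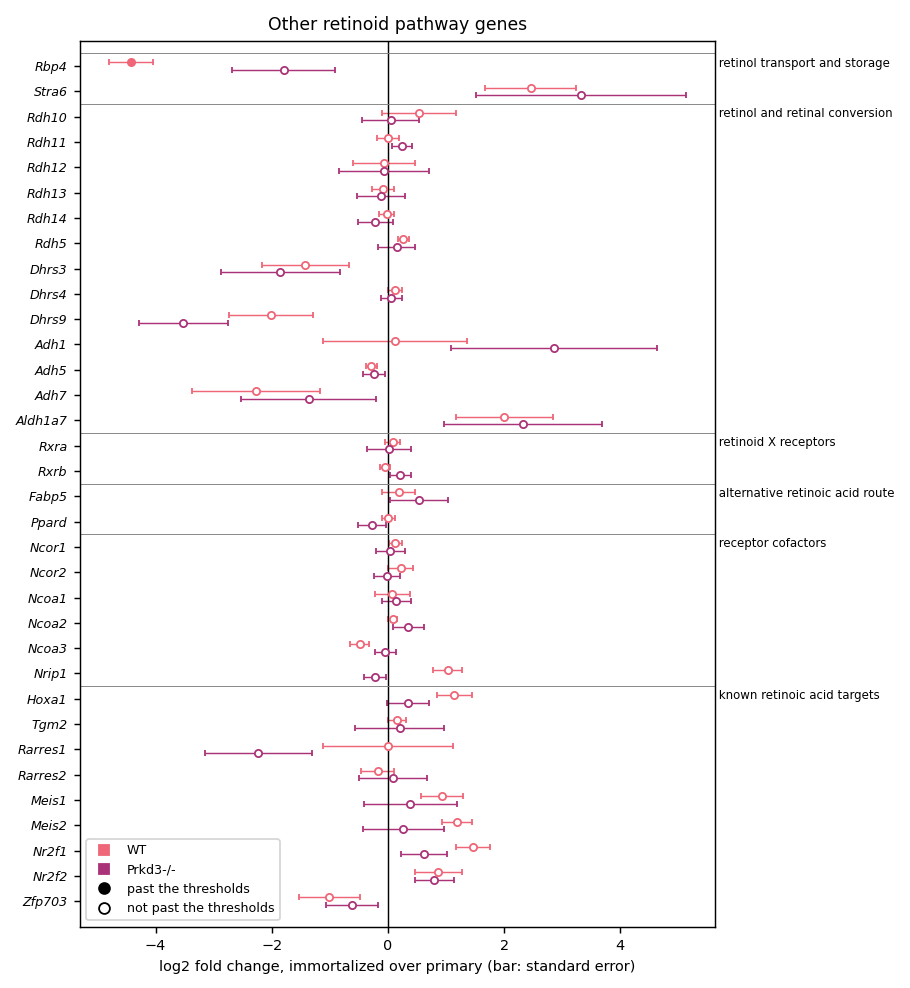
Log2 fold change of immortalized over primary cells, with its standard error (bars), for other retinoid pathway genes with enough counts, ordered by role, in WT and Prkd3-/-. Rbp4 in WT is the only filled point, that is, past the thresholds, and the retinoid X receptors lie near 0.

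Of the 9 genes, 7 spanned at least 2 on the log2 scale over the 13 libraries, and for these the genes with the most similar profile were sought among 21197 genes, as the smallest root mean square difference of centred log2 CPM over the 13 libraries. For Crabp1 they were Bmp2 (0.92) and Msx1 (1.01), beside a standard deviation of 2.63 for Crabp1 itself. For Aldh1a2 they were Lrrtm1 (0.78) and Kcnb2 (0.84), beside 2.95. For Crabp2 they were F830208F22Rik (0.59) and Pstpip2 (0.68), beside 1.78, and for Aldh1a1 Ntng2 (0.53) and Serpinf1 (0.58), beside 1.83. Relative to the gene's own spread, these matches were closer than those of Aldh1a3, whose nearest gene was Ezr (0.61, beside 1.08), of Cyp26b1 with Dock5 (0.52, beside 0.99) and of Rarb with Gm13898 (0.49, beside 0.93). None of the 9 genes was among the 2 nearest genes of another. These are descriptions over libraries that share clones and depth.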

How the data were processed

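Poly-A RNA of 13 MEF libraries was analysed from 2 tables of gene counts. For WT, the authors mapped pairs with STAR 2.7.10a to mm10 (GRCm38), used SAMtools 1.18, and counted unique pairs on Ensembl 102 genes with featureCounts (Subread 2.0.6), without strand and with a pair assigned to every gene it overlapped. The deposited values are raw counts without normalization. The submitters' notes name the same tools for the Prkd3-/- table, whose own steps are not given in the sources used here. Gene rows with a symbol numbered 55141 of 55487.

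Counts were fitted with edgeR 4.0.16 (R 4.3.3, TMM, its low-count filter, robust quasi-likelihood test, Benjamini-Hochberg adjustment over all genes), each genotype alone, with the study's thresholds, and the state by genotype interaction in a fit of the 13 libraries (threshold: adjusted p of 0.05). The standard error is the size of the log2 fold change divided by the square root of F. P-values measure the spread between these libraries, with lines 13 and 13a of the same clone number entered as separate lines. Whether the primary libraries are independent of each other was not tested. The fits were run on simulated counts with the same spread in every group. The groups here differ in spread, so that run does not show how the fits behave on them. Clone numbers pair primary libraries and lines (same embryo in WT per a figure legend of the paper, same clone in the labels of Prkd3-/-). Even so, their deviations correlated between −0.05 and 0.04 in WT and between −0.30 and 0.16 in Prkd3-/-. No 2 libraries of a group agreed within sampling noise. Alternatives were DESeq2 1.42.0, other scalings, filters, thresholds, blocks and libraries left out.

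The members and lists were chosen with earlier results of these data known. All 9 members are named, pathway genes past the thresholds with edgeR, 8 further genes fixed by name (1 of them is not reported here), Prkd3, and the 2 most similar genes of members spanning at least 2 on the log2 scale, of which the text gives both or the nearest. Top2b and Gm48162 were named after their values were seen. Promoter windows are from RefSeq.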

Additional observations from a re-analysis of the deposited data

How the results depend on the processing

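Over 585 alternative values of single genes, 531 kept their direction and their side of the thresholds, 11 lost a call, 6 gained one and 37 changed sign, and none of those 37 had passed. In WT, 5 of the 9 genes passed with DESeq2 (Aldh1a1, Aldh1a2, Crabp1, Crabp2 and Rarb), 0 in the joint fit of 13 libraries and 0 with the replicate block. Between 0 and 2 passed with 1 library left out (0 without primary 3, 4 or 5, and 1, Crabp2, without line 3). Calls over all genes likewise rose with DESeq2 and went to 0 in the joint fit and with the block, as given below. The block, which pairs each line with the primary library of its clone, changed no call of the 9 genes in the other comparisons. Between primary libraries, 1 gene passed with DESeq2 (Aldh1a2) and between 0 and 2 with 1 library left out (2, Aldh1a1 and Cyp26b1, without Prkd3-/- primary 14). In Prkd3-/- and in the interaction, 0 passed under every alternative run.

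Over all genes, the 361 calls in WT became 1368 with DESeq2, 868 at an adjusted p under 0.05, 0 in the joint fit, 0 with the block (2784 at an unadjusted p under 0.05, and 2199 in the joint fit) and 48 to 743 with 1 library left out. The 156 calls between primary libraries became 836 with DESeq2, 335 without the filter, 607 at an adjusted p under 0.05, 36 in the joint fit and 2 to 1456 with 1 library left out. In Prkd3-/-, 0 calls became 190 with DESeq2 and 1 in the joint fit, and in the interaction 37 with DESeq2 and up to 2 with 1 library left out. Library size alone moved the median log2 fold change of all genes from 0.04 to −0.10 in WT and from 0.06 to 0.18 in the interaction, and the log2 values of single genes move with it.

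Values that changed sign, on the log2 scale, were these. In Prkd3-/-, with lines 13 and 13a summed, Rarg was −0.015, and without primary 14 and line 13a together, a setting chosen after seeing the data, Aldh1a3 was −0.41 and Rarg −0.26. In the interaction, Rarg was 0.058 with library size alone, Crabp2 was −0.0086 without the filter and −0.81 with the replicate block, Aldh1a3 was −0.14 and Crabp2 −0.26 with lines 13 and 13a summed, and without primary 14 and line 13a together Aldh1a1 was 0.085, Aldh1a3 −0.89 and Crabp2 −0.13. With 1 library left out, Aldh1a3 ran from −0.19 to 1.00 in WT. In Prkd3-/-, Aldh1a1 ran from −0.086 to 1.29, Aldh1a3 from −0.0059 to 1.05, Crabp1 from −1.47 to 0.028, Cyp26b1 from −0.78 to 0.12, Rara from −0.24 to 0.12 and Rarg from −0.21 to 0.29. In the interaction, Aldh1a3 ran from −0.47 to 0.76, Crabp2 from −0.77 to 0.46 and Rarg from −0.34 to 0.17. Between primary libraries, Aldh1a3 ran from −0.46 to 0.42, Crabp2 from −0.29 to 0.46 and Rarg from −0.39 to 0.11. The causes were not tested. Genes at a few counts, Aldh1a2 in the lines above all, have a direction but no firm size at this depth.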
